A study of Homo sapiens with 10 samples.

Results

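The genes followed here were the 30 transcripts of glucose uptake, glycolysis, lactate handling and the pentose phosphate pathway listed by symbol, all of which were matched among the 27942 genes of the deposited expression table. They comprise 2 glucose transporters, 12 genes of upper glycolysis, 6 of lower glycolysis, 4 of lactate production and transport and 6 of the pentose phosphate pathway. MCF10A, a non-tumorigenic human mammary epithelial cell line, was seeded on fibronectin-coated polyacrylamide gels and harvested after 24 h. Gels of 400 Pa, 1 kPa, 6 kPa and 60 kPa carried cells in medium with 5 mM glucose, and another group grew on 400 Pa gels in high glucose, which the series description gives as 25 mM. All groups shared the remaining medium supplements, which include horse serum, epidermal growth factor, insulin, hydrocortisone and cholera toxin. Each group had 2 libraries, each prepared from a pool of 4 gel cultures and described by the submitters as a biological replicate. The cell line is a single immortalised line, so p-values measure the spread between pooled cultures and not between donors. In such bulk samples, fewer cells of a kind and less RNA per cell cannot be told apart. The design asks how the transcriptome changes as the substrate stiffens and, on the softest gel, as glucose is raised.

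Glycolysis converts glucose to pyruvate in the cytosol, first spending ATP on phosphorylation and then recovering ATP and NADH in its lower part. Pyruvate can be reduced to lactate, which regenerates NAD+ and leaves the cell through proton-coupled monocarboxylate transporters. The pentose phosphate pathway branches off at glucose phosphate, yields NADPH in its oxidative part and shuffles sugar phosphates in its non-oxidative part, which returns carbon to glycolysis. In mammary epithelium these routes supply energy, reducing power and nucleotide sugars, and in cultured epithelial cells glucose is largely converted to lactate.

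Of the members, 6 (SLC2A1, GPI, ALDOA, GAPDH, RPE and TKT) passed the test both between 60 kPa and 400 Pa and between high and low glucose, with and without a correction for GC content, and their promoters are shown because the results turn on them. Each sequence runs from 250 bases before to 50 bases after an annotated start, on the strand of the gene. The sequences come from RefSeq on GRCh38.p14. Where a gene has several annotated starts, the first listed was taken. It was not matched to the transcript whose FPKM is reported, so the window can belong to another start of the gene. SLC2A1 lies at chr1:42958819-42959118 on the minus strand, GPI at chr19:34364742-34365041 on the plus strand and ALDOA at chr16:30064029-30064328 on the plus strand. GAPDH lies at chr12:6535014-6535313 on the plus strand, RPE at chr2:210002388-210002687 on the plus strand and TKT at chr3:53255973-53256272 on the minus strand. Capitals mark ACGTG, the core of the hypoxia response element, and GGGCGG, the GC box, on either strand; ACGTG can lie within CACGTG, the E-box.
SLC2A1: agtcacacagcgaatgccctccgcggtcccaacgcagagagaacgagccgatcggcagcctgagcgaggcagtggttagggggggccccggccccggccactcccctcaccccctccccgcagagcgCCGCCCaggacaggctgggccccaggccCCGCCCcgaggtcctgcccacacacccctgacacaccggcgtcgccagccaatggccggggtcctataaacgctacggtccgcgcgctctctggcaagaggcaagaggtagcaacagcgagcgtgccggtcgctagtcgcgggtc
GPI: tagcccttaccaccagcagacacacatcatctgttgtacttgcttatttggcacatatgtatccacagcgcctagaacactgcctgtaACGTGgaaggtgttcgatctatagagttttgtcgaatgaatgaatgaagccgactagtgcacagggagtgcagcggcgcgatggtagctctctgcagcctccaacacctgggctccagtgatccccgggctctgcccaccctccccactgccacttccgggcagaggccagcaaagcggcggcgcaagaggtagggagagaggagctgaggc
ALDOA: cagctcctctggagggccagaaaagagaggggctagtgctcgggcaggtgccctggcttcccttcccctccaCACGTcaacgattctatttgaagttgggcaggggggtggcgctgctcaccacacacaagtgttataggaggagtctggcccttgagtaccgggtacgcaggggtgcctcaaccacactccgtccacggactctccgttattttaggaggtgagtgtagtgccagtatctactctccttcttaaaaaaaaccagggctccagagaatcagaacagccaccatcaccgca
GAPDH: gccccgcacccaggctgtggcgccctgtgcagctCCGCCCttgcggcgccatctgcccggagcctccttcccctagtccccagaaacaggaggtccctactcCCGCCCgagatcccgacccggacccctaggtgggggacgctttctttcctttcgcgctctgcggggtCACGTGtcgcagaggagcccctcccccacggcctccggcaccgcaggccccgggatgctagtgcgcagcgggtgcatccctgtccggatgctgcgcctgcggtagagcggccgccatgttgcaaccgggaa
RPE: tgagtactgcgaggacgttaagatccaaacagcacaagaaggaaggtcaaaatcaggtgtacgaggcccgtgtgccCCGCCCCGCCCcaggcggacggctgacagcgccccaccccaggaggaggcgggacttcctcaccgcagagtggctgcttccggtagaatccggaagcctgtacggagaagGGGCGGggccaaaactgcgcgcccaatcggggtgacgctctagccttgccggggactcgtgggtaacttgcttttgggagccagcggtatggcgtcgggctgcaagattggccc
TKT: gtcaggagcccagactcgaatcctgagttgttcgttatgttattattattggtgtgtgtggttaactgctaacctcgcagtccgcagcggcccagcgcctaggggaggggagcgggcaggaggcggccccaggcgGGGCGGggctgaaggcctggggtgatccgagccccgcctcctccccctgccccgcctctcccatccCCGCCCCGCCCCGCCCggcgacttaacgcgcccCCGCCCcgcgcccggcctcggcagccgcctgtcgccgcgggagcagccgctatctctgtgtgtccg

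GPI and ALDOA held ACGTG and no GC box in this window, SLC2A1, RPE and TKT held GC boxes and no ACGTG, and GAPDH held both. Over the 27 members with a promoter in the table, ACGTG was found in 9 (33.3%), against 21.4% of all 35116 promoters of the same length. CACGTG was found in 3 members (11.1%), against 7.3% of all promoters, and GGGCGG in 23 (85.2%), against 45.0%. Each member was counted with a single promoter. The comparison took every promoter in the reference, without selecting expressed genes or matching GC content, so the shares come from unlike sets. These matches describe the letters in the window and were not tested for binding.

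Expression was given as FPKM, a count scaled by transcript length and by the number of mapped reads. Between 2.98 M and 28.61 M reads were mapped per library (M, 1e6 reads), of which 1.97 M to 18.40 M fell on annotated exons; the 6 kPa libraries were the shallowest and the 400 Pa libraries the deepest. Libraries are named by their group and by which of the pair was deeper. All 8 mammary epithelial markers were above 0.5 FPKM on average, among them KRT5 at 1632.4 FPKM on 400 Pa, and their summed level was 2923.6 to 3025.1 FPKM on 400 Pa, 2744.5 to 2809.1 on 1 kPa, 2461.8 to 3009.3 on 6 kPa, 2070.0 to 2321.5 on 60 kPa and 2017.2 to 2030.9 in high glucose. These markers went both ways: on 60 kPa 4 of 8 were lower and 1, ITGA6, was higher, from 70.1 to 114 FPKM, and in high glucose the 4 keratins were lower and EPCAM, TP63 and ITGA6 higher. After the correction for GC content described below, 1 was higher and 3 were lower on 60 kPa, and 0 were higher and 3 lower in high glucose. Of fibroblast markers 2 of 5, of leukocyte markers 2 of 4 and of endothelial markers 0 of 4 exceeded that level, with PTPRC, the defining pan-leukocyte gene, at 0 to 0.018 FPKM. The leukocyte markers above it were CD68, at a mean of 12.2 FPKM on 400 Pa and 8.25 on 60 kPa, and CD14, at 8.72 and 2.6, both called lower on 60 kPa. After GC correction only 1 of these leukocyte markers was called lower there. The summed fibroblast level was 17.2 to 17.4 FPKM on 400 Pa, 11.9 to 12.1 on 60 kPa and 17.6 to 19 in high glucose, the summed leukocyte level 20.6 to 21.1, 8.88 to 13 and 14.6 to 15.2, and the summed endothelial level 0.927 to 0.964, 0.722 to 0.762 and 0.937 to 1.06; their part in the results was not tested.

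The libraries also differed in how their values varied with the GC content of transcripts. Across genes, each library's deviation from the gene mean correlated with GC content at a Spearman rho of 0.60 to 0.66 in both 400 Pa libraries, both 1 kPa libraries and the deeper 6 kPa library. The same rho was between -0.66 and -0.57 in all 60 kPa and high-glucose libraries, and -0.31 in the shallower 6 kPa library, which therefore stood apart from its partner. The members had a median GC content of 54.8%, against 49.3% over all tested genes, so each result below is given with a value from which each library's smooth dependence on GC was removed where this changed a call. Such a correction also centres each library. The part of the GC dependence in the results was not tested.

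On the 400 Pa gel in 5 mM glucose, the members together made up 3.1% ± 0.006 (SD, n = 2) of all summed FPKM, a share of the table that compares levels per length. It was 2.8% ± 0.032 on 1 kPa, 2.8% ± 0.079 on 6 kPa, 2.64% ± 0.03 on 60 kPa and 2.4% ± 0.014 in high glucose. Upper and lower glycolysis followed this order, from 2.5% ± 0.0098 on 400 Pa to 2.06% ± 0.026 on 60 kPa and 1.82% ± 0.015 in high glucose. The pentose phosphate genes made up 0.254% ± 0.0038 on 400 Pa, 0.174% ± 0.0038 on 60 kPa and 0.172% ± 0.0029 in high glucose. The summed lactate genes went the other way, with 0.338% ± 0.0079 on 400 Pa, 0.402% ± 0.008 on 60 kPa and 0.403% ± 0.0041 in high glucose. Among them SLC16A3 was lower, at a mean of 129 FPKM on 400 Pa, 96.4 on 60 kPa and 99.6 in high glucose. After GC correction the median log2 difference of the lactate genes from 400 Pa was -0.01 on 60 kPa and 0.02 in high glucose. These shares are dominated by a few abundant transcripts: GAPDH, ENO1, PKM and ALDOA were the members with the highest FPKM, and no test was run on the shares.

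**Figure D1:**
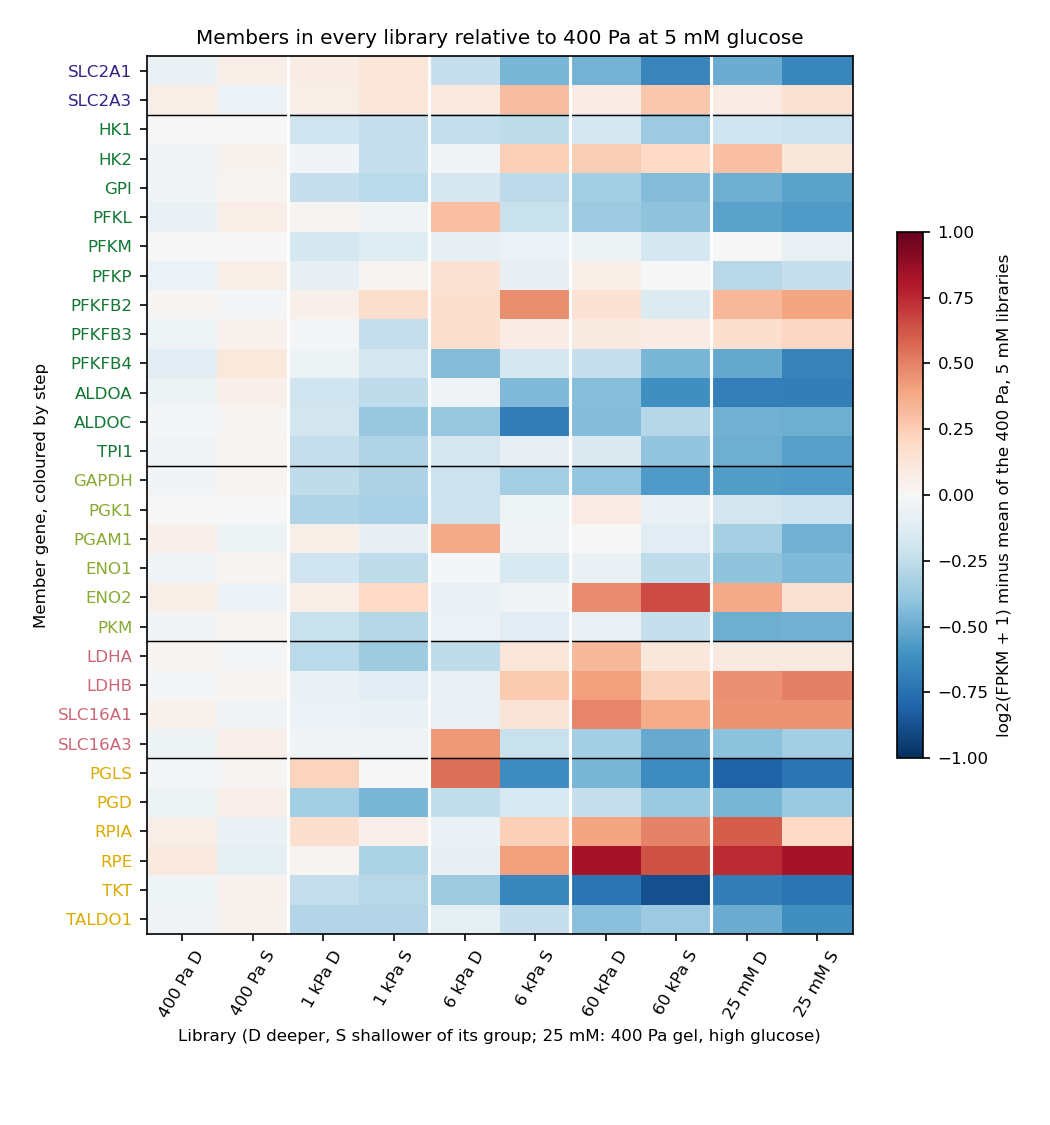
Log2(FPKM + 1) of each of the 30 members (rows, in pathway order, grouped by step) in each of the 10 libraries (columns, deeper and shallower of each group), minus the mean of the 400 Pa libraries at 5 mM glucose; blue is lower and red is higher. Most glycolytic rows are blue in the 60 kPa and high-glucose columns, LDHB, SLC16A1, RPIA and RPE are red there, and the 6 kPa columns of PFKL, SLC16A3 and PGLS differ in colour.

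Between 60 kPa and 400 Pa, 8 of the 29 members tested changed. SLC2A1, GPI, ALDOA, GAPDH, TKT and TALDO1 were lower on 60 kPa, and SLC16A1 and RPE were higher. Among the called members the largest decrease on the log2(FPKM + 1) scale was in TKT, from a mean of 478 to 273 FPKM, and the largest increase in RPE, from 7.97 to 13.9 FPKM. Every test here used limma on log2(FPKM + 1) across the 12820 genes whose mean reached 0.5 FPKM, fitted to all 10 libraries in 5 groups, with p-values adjusted by the Benjamini-Hochberg method over all those genes and called under 0.05; folds on this scale understate changes of low genes. Of all tested genes 21.2% were called in this comparison, 15.1% higher and 6.15% lower, whereas the members called were 2 higher and 6 lower, 27.6% of those tested. The median log2 difference was -0.16 over the members and 0.06 over all genes. Both 60 kPa libraries lay above both 400 Pa libraries for 8 members and below them for 17, where 41.3% and 29.4% of all genes did so, and 4 members overlapped.

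With the GC correction the count at 60 kPa was 9 members, 2 higher and 7 lower, against 10.1% of all genes (4.93% higher and 5.20% lower), with a median of -0.11 over the members. The 6 members SLC2A1, GPI, ALDOA, GAPDH, TKT and RPE were called either way, TALDO1 and SLC16A1 were not called after correction, and PGD, PGK1 and PFKP were called only after it. Scaling the libraries by trimmed means (TMM) moved the median of all genes to -0.04 and the calls over all genes from 1934 higher and 788 lower to 1480 higher and 1381 lower; 13 members were then called, 2 higher and 11 lower, against 22.3% of all genes (11.5% higher and 10.8% lower). With limma on the authors' deposited variance-stabilised values 23 members were called, against 51.8% of all genes, 6 higher and 17 lower. They included ENO1, PKM, SLC16A3 and PGLS, lower, and LDHA and LDHB, higher, none of them called on the FPKM values. With no filter on low values 6 members were called, against 9.07% of all genes, and ALDOA (adjusted p = 0.0838), GAPDH (adjusted p = 0.131) and RPE (adjusted p = 0.0604) were not among them. The count rested on single libraries. It fell when a 400 Pa or a 60 kPa library was left out and rose when a 6 kPa library was left out. The share of all genes called in such fits is not given, so these shifts are not results about the members. All 8 calls kept their sign in every such fit.

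Between 25 mM and 5 mM glucose on the 400 Pa gel, 16 of the 29 members changed, 3 upward and 13 downward. LDHB, SLC16A1 and RPE were higher in high glucose. SLC2A1, GPI, PFKL, PFKFB4, ALDOA, ALDOC, TPI1, GAPDH, ENO1, PKM, PGD, TKT and TALDO1 were lower. Of all tested genes 24.5% were called, 17.6% higher and 6.84% lower, against 55.2% of the members, and the median log2 difference was -0.41 over the members and 0.08 over all genes. The 2 libraries of each group did not overlap for any tested member: 20 members were lower and 9 higher in both high-glucose libraries, while 31.1% of all genes were lower and 43.9% higher in this sense.

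After GC correction 11 members were called in high glucose, RPE upward and 10 downward, against 5.46% of all genes (2.81% higher and 2.66% lower), and the median over the members was -0.23. Of the 16 calls, 10 were kept; PFKL, PFKFB4, ALDOC, ENO1, LDHB and SLC16A1 were not called, and PGK1 was called lower. TMM scaling gave 20 members, 3 higher and 17 lower, against 27.3% of all genes (13.5% higher and 13.8% lower), with a median of -0.02 over all genes, and moved the calls over all genes from 2259 higher and 877 lower to 1726 higher and 1774 lower. The deposited variance-stabilised values gave 24, 4 higher and 20 lower, against 55.4% of all genes. With no filter 10 members were called, against 10.1% of all genes, and GAPDH was not among them (adjusted p = 0.0813). Here too single libraries decided the count, which fell when a 400 Pa or a high-glucose library was left out. The share of all genes called in such fits is again not given. All 16 calls kept their sign. The 60 kPa and high-glucose comparisons share the 400 Pa libraries at 5 mM glucose and are therefore not independent of each other.

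**Figure D2:**
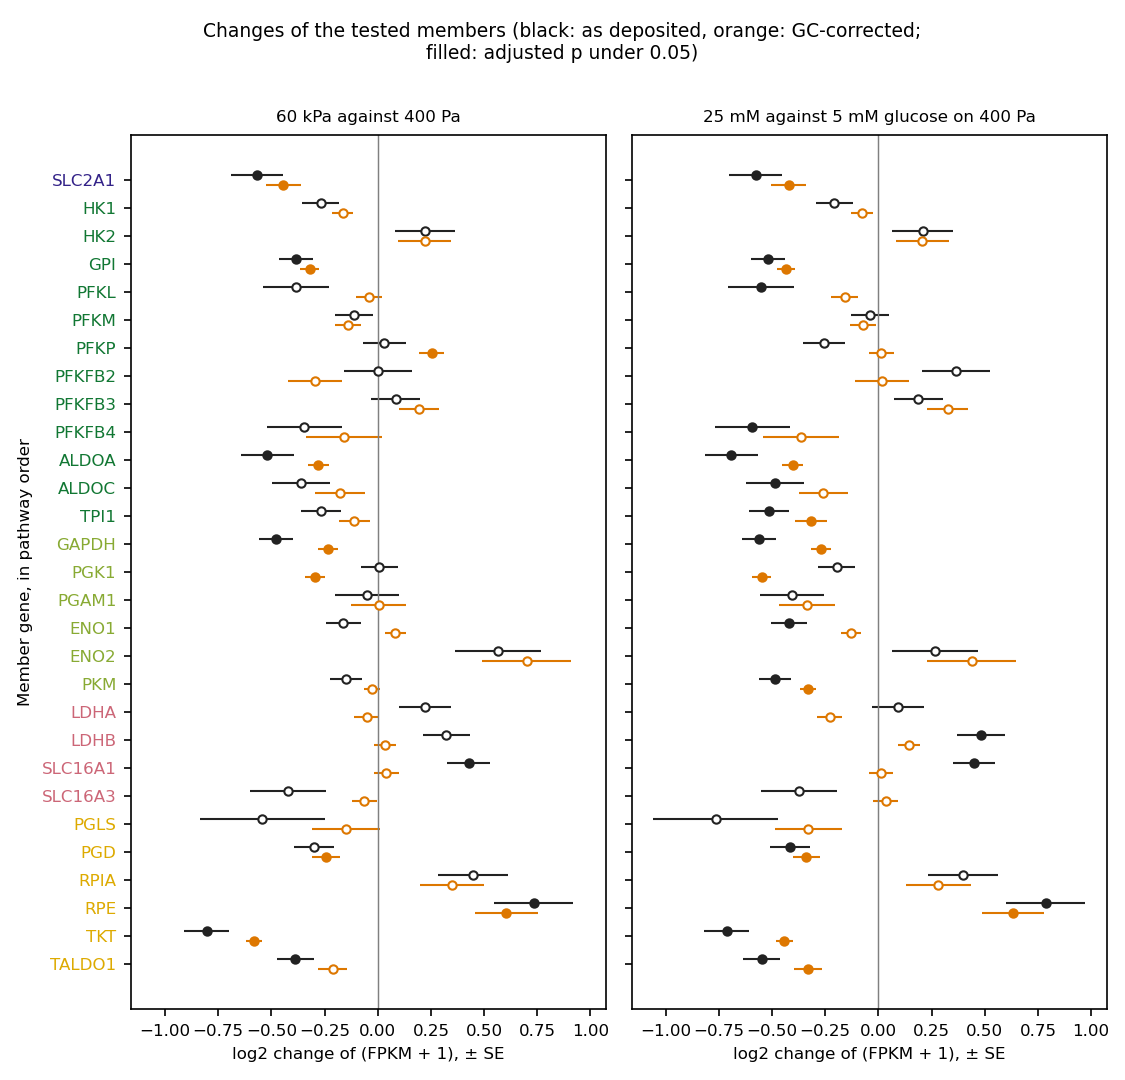
Log2 difference in FPKM + 1 (x axis, ± SE of the limma fit) of the 29 tested members (y axis, in pathway order) for 60 kPa against 400 Pa (left) and for 25 mM against 5 mM glucose on 400 Pa (right). Black points use the deposited values and orange points the GC-corrected ones, filled where the adjusted p was under 0.05; SLC2A1, GPI, ALDOA, GAPDH and TKT lie left of 0 and RPE right of 0, filled in both colours and both panels.

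Glucose uptake was represented by SLC2A1, which encodes the ubiquitous glucose transporter GLUT1, and by SLC2A3, which encodes the high-affinity transporter GLUT3. SLC2A1 was at 22 and 24.1 FPKM in the deeper and shallower 400 Pa libraries, 24.3 and 25.2 on 1 kPa, 19.5 and 16.5 on 6 kPa, 16.3 and 14.2 on 60 kPa, and 16 and 14.3 in high glucose. Both libraries of the 60 kPa and high-glucose groups lay below all 400 Pa and 1 kPa libraries, and the 6 kPa libraries lay between. The log2 difference from 400 Pa was -0.57 ± 0.12 (SE; adjusted p = 0.0148) on 60 kPa and -0.58 ± 0.12 (adjusted p = 0.0140) in high glucose, and -0.44 and -0.42 after GC correction. An antisense transcript, SLC2A1-AS1, overlaps an exon of this gene on the other strand, and the counting was not stated to use strand. SLC2A3 was at 0.039 to 0.342 FPKM, on 2 to 14 reads per library, and was not tested.

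In upper glycolysis, the hexokinases HK1 and HK2, which phosphorylate glucose, were not called in either comparison. HK1, the more abundant, had a log2 difference of -0.27 ± 0.09 on 60 kPa (adjusted p = 0.0566) and -0.21 ± 0.09 in high glucose (adjusted p = 0.107), and HK2 had 0.22 ± 0.14 and 0.21 ± 0.14. By limma after TMM scaling, HK1 was called lower in both comparisons (adjusted p = 0.00666 and 0.0107), as with the deposited variance-stabilised values. After GC correction HK1 was not called, at -0.16 and -0.08. Over the step, 2 of 12 genes were lower on 60 kPa and 6 of 12 in high glucose, and none was higher. Of all genes 6.15% and 6.84% were lower, and 15.1% and 17.6% higher. The medians of the step were -0.27 and -0.37. After GC correction 1 was higher and 2 lower on 60 kPa, against 4.93% and 5.20% of all genes. In high glucose 0 were then higher and 3 lower, against 2.81% and 2.66%. The corrected medians were -0.15 and -0.12.

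GPI, the isomerase that makes fructose phosphate from glucose phosphate, was at 166 and 172 FPKM on 400 Pa, 144 and 140 on 1 kPa, 150 and 141 on 6 kPa, 133 and 125 on 60 kPa and 120 and 116 in high glucose. All libraries of the other groups lay below both 400 Pa libraries, and those in high glucose were the lowest. The decrease was 0.39 ± 0.08 (adjusted p = 0.0126) and 0.52 ± 0.08 (adjusted p = 0.00669) on the log2 scale, and log2 differences of -0.32 and -0.43 remained after GC correction.

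The phosphofructokinase subunits PFKL, PFKM and PFKP form the main control point of glycolysis. PFKL was at 33.6 and 37.1 FPKM on 400 Pa, 36 and 34.5 on 1 kPa, 43.7 and 30.1 on 6 kPa, 27.2 and 26.4 on 60 kPa and 24 and 23.5 in high glucose. The 6 kPa pair spanned the levels of both 400 Pa libraries, and the high-glucose pair was lowest. PFKL was lower in high glucose, at -0.55 ± 0.15 (adjusted p = 0.0329), whereas after GC correction the log2 difference was -0.16 and was not called. PFKP, the most abundant subunit, was at 126 and 137 FPKM on 400 Pa, 124 and 134 on 1 kPa, 145 and 124 on 6 kPa, 137 and 131 on 60 kPa and 108 and 112 in high glucose. Its 60 kPa libraries overlapped those on 400 Pa, with a log2 difference of 0.03 ± 0.10, which became 0.25 after GC correction and was then called (adjusted p = 0.0302, the lowest of a range up to 0.909 over the alternatives other than leaving out 1 library). PFKM, whose exons are overlapped by SENP1 on the other strand, stayed between 30.7 and 34.9 FPKM and was called in neither comparison.

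The bifunctional enzymes encoded by PFKFB2, PFKFB3 and PFKFB4 set the level of the sugar bisphosphate that activates phosphofructokinase, and all were below 10 FPKM. PFKFB4 was at 2.14 and 2.65 FPKM on 400 Pa, 2.26 and 1.99 on 1 kPa, 1.5 and 2.02 on 6 kPa, 1.89 and 1.47 on 60 kPa and 1.37 and 1.13 in high glucose. Both high-glucose libraries lay below all others, and PFKFB4 was lower there (log2 difference -0.59 ± 0.18, adjusted p = 0.0406; -0.36 and not called after GC correction). PFKFB2 and PFKFB3 differed from 400 Pa by 0.36 ± 0.16 and 0.19 ± 0.12 in high glucose, and neither was called.

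ALDOA, the principal aldolase, which splits the sugar bisphosphate, was at 908 and 975 FPKM on 400 Pa, 821 and 789 on 1 kPa, 919 and 691 on 6 kPa, 701 and 615 on 60 kPa and 584 and 581 in high glucose. The deeper 6 kPa library lay within the 400 Pa range, and the shallower one near the 60 kPa level. ALDOA was lower by 0.52 ± 0.13 on 60 kPa (adjusted p = 0.0220) and by 0.69 ± 0.13 in high glucose (adjusted p = 0.00940), with log2 differences of -0.28 and -0.40 after GC correction, both called.

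ALDOC, a second aldolase isozyme, was at 10.4 and 10.6 FPKM on 400 Pa, 9.12 and 7.84 on 1 kPa, 7.86 and 6.13 on 6 kPa, 7.51 and 8.43 on 60 kPa and 7.22 and 7.21 in high glucose. The 400 Pa libraries were above all others, and ALDOC was called lower in high glucose only (log2 difference -0.49 ± 0.14, adjusted p = 0.0339), a call lost with the GC correction (-0.26); on 60 kPa its difference was -0.36 ± 0.14 (adjusted p = 0.0923). TPI1, the triose phosphate isomerase, was at 242 and 252 FPKM on 400 Pa, 209 and 200 on 1 kPa, 220 and 233 on 6 kPa, 223 and 188 on 60 kPa and 176 and 169 in high glucose. Its high-glucose libraries lay below all others, with a log2 difference of -0.51 ± 0.09 (adjusted p = 0.00955) from 400 Pa, or -0.32 after GC correction, also called.

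Lower glycolysis starts with GAPDH, the dehydrogenase that yields NADH and is often used as a reference gene. GAPDH was at 3076.9 and 3187.9 FPKM on 400 Pa, 2622.7 and 2525.7 on 1 kPa, 2694.8 and 2469.2 on 6 kPa, 2391.6 and 2113.4 on 60 kPa and 2130.2 and 2117.1 in high glucose. Both 400 Pa libraries were above all others. GAPDH was lower on 60 kPa (log2 difference -0.48 ± 0.08, adjusted p = 0.00608) and in high glucose (-0.56 ± 0.08, adjusted p = 0.00669), with -0.24 and -0.27 after GC correction, both called. GENCODE release 29 lists 62 pseudogenes named after GAPDH, more than for any other member, so reads may be shared with these copies.

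PGK1, the first ATP-yielding enzyme of glycolysis, was at 215 and 216 FPKM on 400 Pa, 175 and 172 on 1 kPa, 187 and 209 on 6 kPa, 228 and 206 on 60 kPa and 190 and 186 in high glucose. Its 60 kPa libraries lay on either side of the 400 Pa libraries, and the log2 difference was 0.01 ± 0.09. PGK1 has a transcript GC content of 43.3%. After GC correction its difference became -0.30 ± 0.05 on 60 kPa (adjusted p = 0.00624, the lowest of a range up to 1.00) and -0.55 ± 0.05 in high glucose (adjusted p = 0.00237, within a range of 1.12e-10 to 0.171), where the uncorrected difference was -0.20 ± 0.09. The direction on 60 kPa therefore depended on this choice.

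ENO1, the main enolase, was at 1665.1 and 1732.5 FPKM on 400 Pa, 1477.7 and 1420.4 on 1 kPa, 1685.4 and 1532.2 on 6 kPa, 1623.4 and 1421.0 on 60 kPa and 1285.4 and 1252.3 in high glucose. Only the high-glucose pair lay below all other libraries, and ENO1 was lower there (log2 difference -0.42 ± 0.08, adjusted p = 0.0117), with -0.13 and no call after GC correction. PKM, which encodes the pyruvate kinase that makes pyruvate and ATP, was at 939 and 975 FPKM on 400 Pa, 822 and 784 on 1 kPa, 919 and 886 on 6 kPa, 911 and 817 on 60 kPa and 682 and 684 in high glucose. The high-glucose libraries were again the lowest; PKM was lower by 0.49 ± 0.08 there (adjusted p = 0.00681; log2 difference -0.33 and called after GC correction), and had a log2 difference of -0.15 ± 0.08 on 60 kPa (adjusted p = 0.192). PGAM1, the phosphoglycerate mutase, was at 6.16 to 12 FPKM, has 13 named pseudogenes and was not called. ENO2 passed the filter only through the 60 kPa and high-glucose groups, where it was highest, so its place among the members above 400 Pa and in the medians carries no weight. This enolase isozyme is best known from neurons; it had 2 to 25 reads per library and was not called either, with 0.363 and 0.256 FPKM on 400 Pa and 0.814 and 1.06 on 60 kPa.

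**Figure D3:**
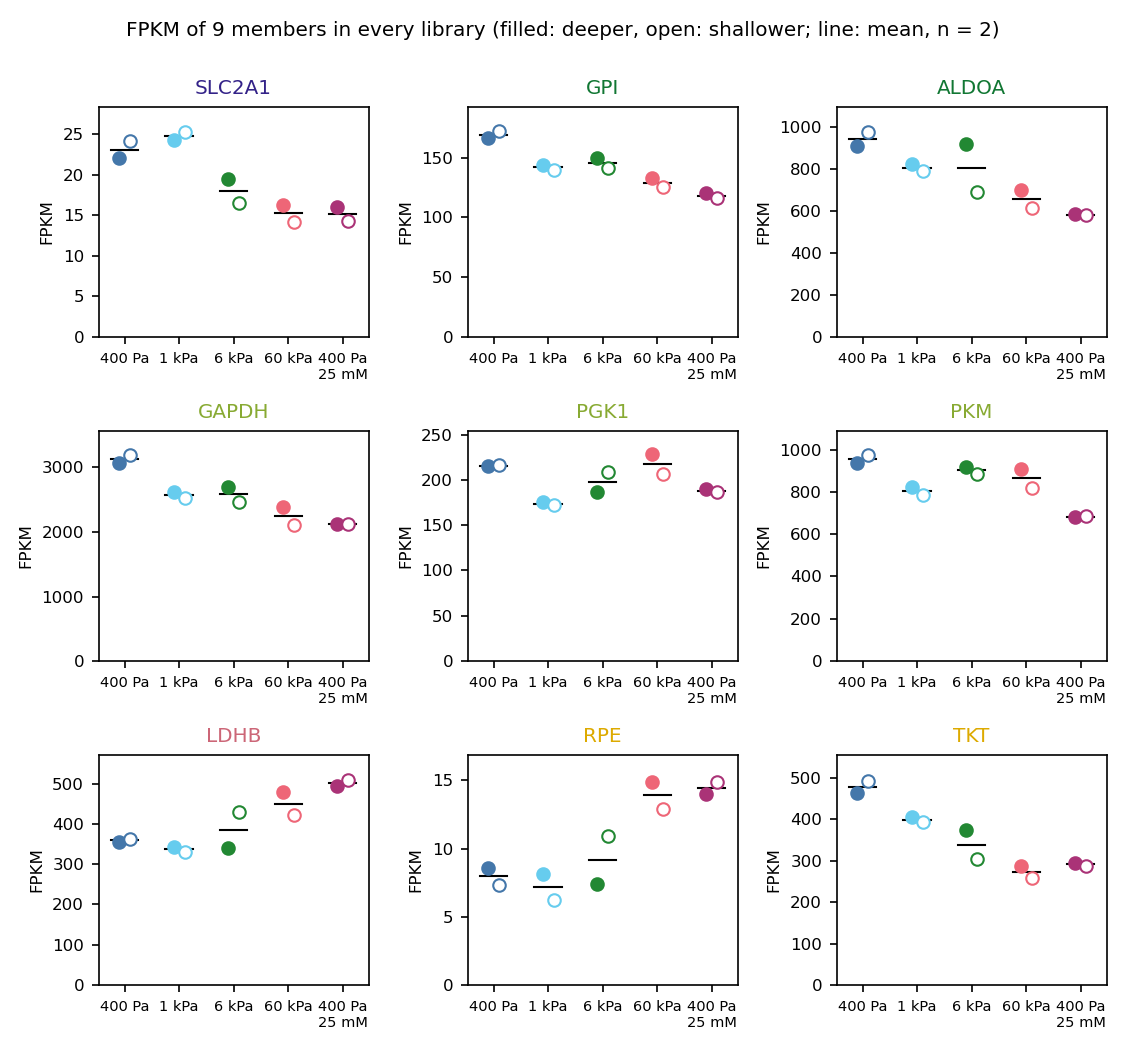
FPKM (y axis, from 0) of selected members in the 5 groups (x axis); filled points are the deeper and open points the shallower library of a group, and lines are means of n = 2. SLC2A1, GPI, ALDOA, GAPDH and TKT are lower on 60 kPa and in high glucose than on 400 Pa, RPE and LDHB are higher, PKM is lowest in high glucose, and PGK1 on 60 kPa lies on either side of its 400 Pa level.

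Lactate is made and used by lactate dehydrogenase, whose LDHA subunit favours pyruvate reduction and whose LDHB subunit favours lactate oxidation. LDHB was at 355 and 363 FPKM on 400 Pa, 343 and 331 on 1 kPa, 341 and 430 on 6 kPa, 478 and 422 on 60 kPa and 494 and 510 in high glucose. All 60 kPa and high-glucose libraries were above both 400 Pa libraries, and the 6 kPa libraries were apart, the deeper near 1 kPa and the shallower near 60 kPa. LDHB was higher in high glucose (log2 difference 0.48 ± 0.11, adjusted p = 0.0179) and had 0.32 ± 0.11 on 60 kPa (adjusted p = 0.0711); after GC correction these were 0.14 and 0.03, neither called. LDHA was at 523 and 510 FPKM on 400 Pa, 429 and 404 on 1 kPa, 433 and 562 on 6 kPa, 648 and 560 on 60 kPa and 551 and 550 in high glucose. It was called in neither comparison, at 0.22 ± 0.12 and 0.09 ± 0.12, and both values became negative after GC correction, at -0.05 and -0.23.

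Of the monocarboxylate transporters, SLC16A1 encodes MCT1, which can import or export lactate, and SLC16A3 encodes MCT4, which exports it. SLC16A1 was at 38.9 and 37 FPKM on 400 Pa, 36.4 and 36.2 on 1 kPa, 35.9 and 41.5 on 6 kPa, 53.6 and 49.3 on 60 kPa and 52.3 and 52.1 in high glucose. The 60 kPa and high-glucose libraries were above all others. SLC16A1 was higher by 0.43 ± 0.10 on 60 kPa (adjusted p = 0.0187) and by 0.45 ± 0.10 in high glucose (adjusted p = 0.0156). It has a GC content of 41.7%, the lowest of the members, and after GC correction the differences were 0.04 and 0.01 and not called. SLC16A3, with a GC content of 64.2%, was at 125 and 134 FPKM on 400 Pa, 127 and 126 on 1 kPa, 175 and 111 on 6 kPa, 102 and 91.1 on 60 kPa and 97.3 and 102 in high glucose. It was not called, at -0.42 ± 0.18 and -0.37 ± 0.18, or -0.06 and 0.03 after GC correction. By limma on the deposited variance-stabilised values SLC16A3 was called lower in both comparisons (adjusted p = 6.93e-11 and 1.68e-14). Exons of CSNK1D overlap SLC16A3 on the other strand. Over the 4 lactate genes the median was 0.27 in both comparisons and, after GC correction, -0.01 on 60 kPa and 0.02 in high glucose.

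In the oxidative part of the pentose phosphate pathway, PGLS hydrolyses the lactone intermediate and PGD yields NADPH and ribulose phosphate. PGD was at 101 and 109 FPKM on 400 Pa, 82.7 and 76.1 on 1 kPa, 88.4 and 94.4 on 6 kPa, 89.3 and 81 on 60 kPa and 76.3 and 80.7 in high glucose. Both 400 Pa libraries were above all others; PGD was lower in high glucose (log2 difference -0.42 ± 0.09, adjusted p = 0.0167; -0.34 and called after GC correction), and on 60 kPa its difference was -0.30 ± 0.09 (adjusted p = 0.0511), or -0.24 after GC correction, where it was called (adjusted p = 0.0468, within a range of 6.69e-08 to 0.0639). PGLS, the member with the highest GC content, was at 64.9 FPKM in the deeper and 28.4 in the shallower 6 kPa library. Its log2 difference was -0.54 ± 0.29 on 60 kPa (adjusted p = 0.217) and -0.76 ± 0.29 in high glucose (adjusted p = 0.0864), neither called. After GC correction the differences were -0.15 and -0.33, also not called. PGLS was called lower in both comparisons by limma on the authors' deposited variance-stabilised values, where 51.8% and 55.4% of all genes were called.

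In the non-oxidative part, RPIA and RPE isomerise ribulose phosphate, and TKT and TALDO1 exchange carbon units with glycolysis. RPE was at 8.6 and 7.34 FPKM on 400 Pa, 8.14 and 6.2 on 1 kPa, 7.44 and 10.9 on 6 kPa, 14.9 and 12.9 on 60 kPa and 14 and 14.9 in high glucose. All 60 kPa and high-glucose libraries were above the rest. RPE was higher by 0.73 ± 0.19 on 60 kPa (adjusted p = 0.0248) and by 0.79 ± 0.19 in high glucose (adjusted p = 0.0190), and by 0.60 and 0.63 after GC correction. Its exons are overlapped by KANSL1L on the other strand, and 6 pseudogenes are named after it, so some of its 103 to 779 reads per library may belong to other transcripts. RPIA differed in the same direction, at 0.45 ± 0.17 and 0.40 ± 0.17, and was not called.

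TKT, the transketolase, was at 463 and 493 FPKM on 400 Pa, 405 and 393 on 1 kPa, 374 and 304 on 6 kPa, 287 and 259 on 60 kPa and 295 and 287 in high glucose. Every library of the other groups was below both 400 Pa libraries, and the group means followed the order of stiffness. TKT was lower by 0.81 ± 0.11 on 60 kPa (adjusted p = 0.00320) and by 0.71 ± 0.11 in high glucose (adjusted p = 0.00669), the first of which was the largest decrease of any member on 60 kPa; after GC correction the log2 differences were -0.58 and -0.44, both called. The authors' deposited table gives log2 fold changes of -0.90 and -0.83 for TKT in these comparisons. TALDO1, the transaldolase, was at 141 and 148 FPKM on 400 Pa, 118 and 118 on 1 kPa, 135 and 123 on 6 kPa, 108 and 112 on 60 kPa and 102 and 94.3 in high glucose. All other libraries were below those on 400 Pa; TALDO1 was lower by 0.39 ± 0.09 on 60 kPa (adjusted p = 0.0158) and by 0.55 ± 0.09 in high glucose (adjusted p = 0.00681), and after GC correction the difference of -0.21 on 60 kPa was not called and that of -0.33 in high glucose was.

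Neither softer step gave a call among the members. Between 1 kPa and 400 Pa, 0 of 29 members and 0% of all genes were called by limma, while 776 genes and 11 members, all of the latter lower, had an unadjusted p under 0.05, and limma-voom on reads recovered from the FPKM values called 6 members, against 1.42% of all genes. On 1 kPa, 16 tested members were below and 3 above both 400 Pa libraries, against 26.3% and 22.8% of all genes. PGD had the largest difference from 400 Pa, at -0.40 ± 0.09 (adjusted p = 0.738), followed by PGK1 at -0.31 ± 0.09 (adjusted p = 0.800). SLC2A1 had 0.10 ± 0.12 on 1 kPa.

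Between 6 kPa and 400 Pa, 0 of 29 members were called, against 0.351% of all genes (0.0546% higher and 0.296% lower), with 6 members, all lower, and 1706 of the 12820 genes at an unadjusted p under 0.05. By limma-voom 4 members were called, against 2.93% of all genes. The 6 kPa libraries lay above both 400 Pa libraries for 2 members and below them for 13, against 23.2% and 18.2% of all genes. The largest differences were -0.53 ± 0.14 in ALDOC (adjusted p = 0.172) and -0.50 ± 0.11 in TKT (adjusted p = 0.106). TKT was called after GC correction, at -0.44 ± 0.04 (adjusted p = 0.00136, within a range of 5.82e-05 to 0.572). The count rose without the deeper 6 kPa library, which leaves the library that stood apart as the only one of its group. The share of all genes called in that fit is not given. Under GC correction 1 kPa gave 0 calls, against 0.0395% of all genes, and 6 kPa gave 1, against 2.04% (0.854% higher and 1.19% lower); leaving out the shallower 6 kPa library as well gave 8, against 0.711% of all genes, and 2, against 1.88%.

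A slope of log2(FPKM + 1) against log10 of the stiffness in Pa, over the 8 libraries at 5 mM glucose, was called for 8 members, against 23.3% of all genes (16.8% positive and 6.55% negative). It was positive in LDHB, SLC16A1 and RPE and negative in SLC2A1, GPI, ALDOA, GAPDH and TKT. With TMM scaling 9 members were called, 1 positive and 8 negative, against 23.8% of all genes (12.3% positive and 11.4% negative), and LDHB (adjusted p = 0.0875) and SLC16A1 (adjusted p = 0.0508) were not. With no filter 4 were called, against 10.4% of all genes. TKT had -0.35 ± 0.05 per log10 unit (adjusted p = 0.00284) and was called whichever library was left out, and RPE had 0.37 ± 0.09 (adjusted p = 0.0174). SLC2A1 had -0.30 ± 0.06 (adjusted p = 0.00822). With GC correction 5 members were called, against 8.28% of all genes (4.10% positive and 4.18% negative), which were SLC2A1, GPI and TKT with negative and PFKP and RPE with positive slopes. The uncorrected count of 8 fell when a 60 kPa library, a 400 Pa library or the deeper 1 kPa library was left out. The share of all genes called in such fits is not given. Since the 60 kPa and 400 Pa groups also differ in GC dependence, the slope and that dependence cannot be told apart in this design. The correction removes any smooth variation with GC content, whatever its origin.

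Set directly against each other, 60 kPa at 5 mM and 400 Pa at 25 mM glucose differed in 0 of 29 members, against 1.75% of all genes (0.429% higher and 1.32% lower); 7 members had an unadjusted p under 0.05, 6 of them higher on 60 kPa, as had 1871 of the 12820 genes, 863 of them higher. By limma-voom 2 members were called, against 5.64% of all genes. The member with the lowest adjusted p was PKM, at 0.34 ± 0.08 (adjusted p = 0.0715). The 60 kPa libraries lay above both high-glucose libraries for 16 members and below them for 3, against 23.9% and 24.9% of all genes. After GC correction 4 members, against 6.89% of all genes (3.18% higher and 3.72% lower), were higher on 60 kPa: PKM at 0.30 ± 0.04 (adjusted p = 0.00237, within a range of 1.15e-04 to 0.265), PGK1 at 0.25 ± 0.05 (adjusted p = 0.0154, the lowest of a range up to 0.385), ENO1 at 0.21 ± 0.05 (adjusted p = 0.0344, within a range of 0.00283 to 0.560) and PFKP at 0.24 ± 0.06 (adjusted p = 0.0461, the lowest of a range up to 0.277). Of the 8 members called in both comparisons with 400 Pa without GC correction, SLC2A1 differed by 0.01 ± 0.12, RPE by -0.05 ± 0.19, TKT by -0.09 ± 0.11, GAPDH by 0.08 ± 0.08, GPI by 0.13 ± 0.08 and ALDOA by 0.17 ± 0.13. SLC16A1 and TALDO1, called in both only without that correction, differed by -0.02 ± 0.10 and 0.16 ± 0.09. A p that misses the threshold does not show that the 2 groups are alike.

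**Figure D4:**
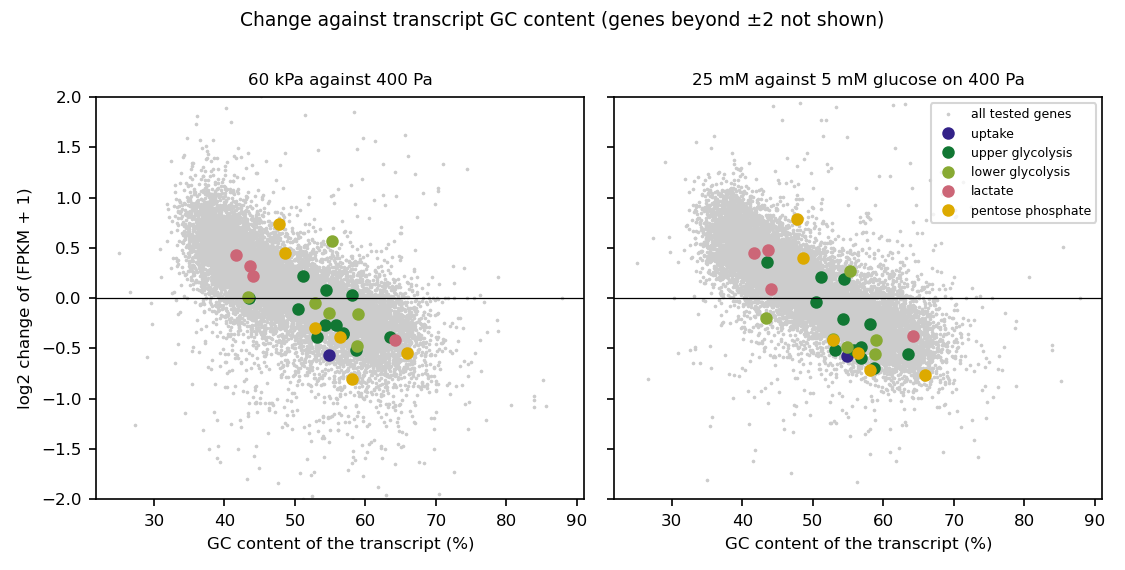
Log2 difference in FPKM + 1 (y axis) against the GC content of the transcript in percent (x axis) for all tested genes (grey) and for the members coloured by pathway step, for 60 kPa against 400 Pa (left) and 25 mM against 5 mM glucose on 400 Pa (right). Genes beyond 2 on the log2 scale are not drawn. Genes of low GC content tend to lie above 0 and genes of high GC content below it; the lactate genes of low GC content lie above 0, while TKT and SLC2A1 lie low for their GC content.

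The relation of the differences to GC content was seen in all genes and in the members. Across all 12650 tested genes with a GC value, the Spearman rho between the log2 difference and GC content was -0.72 on 60 kPa, -0.34 on 6 kPa, -0.02 on 1 kPa and -0.78 in high glucose; across the 29 tested members it was -0.70, -0.33, 0.05 and -0.76. These are correlations across genes that share the same libraries and are given as a description. Between 60 kPa and high glucose, both groups with a negative library rho, it was 0.12 over all genes and 0.37 over the members. TKT, at 58.1% GC, and PFKP, at the same rounded 58.1%, differed by -0.81 and 0.03 on 60 kPa. They are 1 pair picked from the members, and the part of GC content in their differences was not tested.

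Isozyme ratios were computed within each library as ratios of FPKM and were not tested. SLC16A3 to SLC16A1 was 3.41 ± 0.299 (SD, n = 2) on 400 Pa, 3.48 ± 0.0064 on 1 kPa, 3.78 ± 1.56 on 6 kPa, 1.87 ± 0.0354 on 60 kPa and 1.91 ± 0.0676 in high glucose. These transporters lie at opposite ends of the members' GC range, and the 6 kPa libraries, at 4.88 and 2.67, were far apart. LDHA to LDHB was 1.44 ± 0.046 on 400 Pa, 1.24 ± 0.0214 on 1 kPa, 1.29 ± 0.0283 on 6 kPa, 1.34 ± 0.0206 on 60 kPa and 1.1 ± 0.0265 in high glucose, and these subunits have nearly equal GC contents of 44.0% and 43.7%. The high-glucose ratios lay below all others in each of its libraries. PFKP to PFKL was 3.72 ± 0.0337 on 400 Pa, 3.66 ± 0.31 on 1 kPa, 3.73 ± 0.575 on 6 kPa, 5.01 ± 0.0631 on 60 kPa and 4.63 ± 0.181 in high glucose. HK1 to HK2 was 18.6 ± 0.638, 17.9 ± 2.02, 14.5 ± 2.44, 12.9 ± 0.833 and 13.7 ± 1.29 in the same order, and ALDOA to ALDOC was 89.6 ± 3.49, 95.3 ± 7.53, 115 ± 2.94, 83.1 ± 14.3 and 80.7 ± 0.133.

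**Figure D5:**
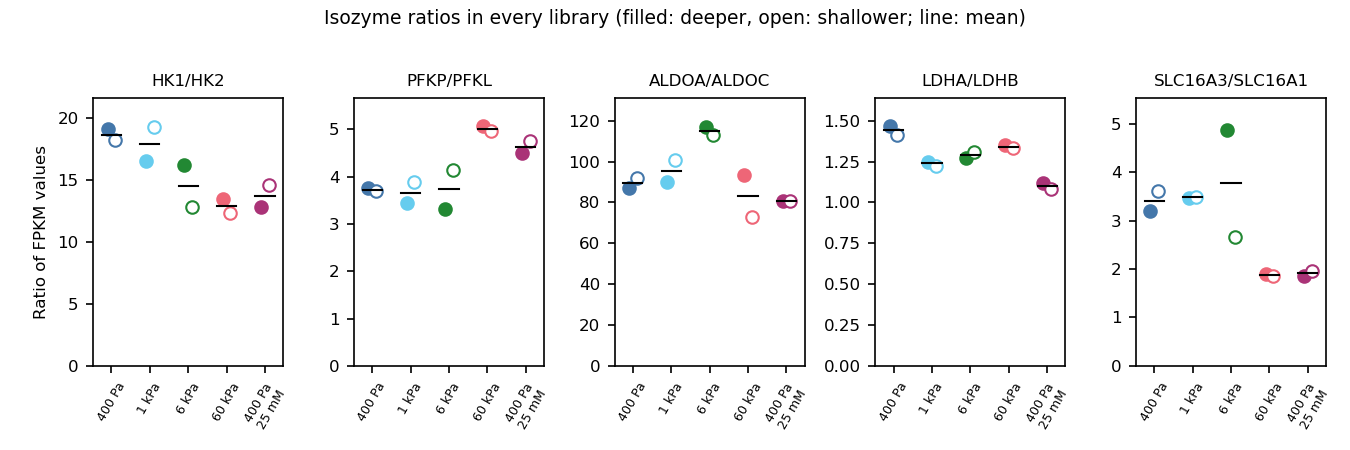
Ratio of FPKM values (y axes, from 0) of isozyme pairs in the 5 groups (x axes); filled points are the deeper and open points the shallower library, and lines are means. LDHA to LDHB is lowest in high glucose, SLC16A3 to SLC16A1 is near 1.9 on 60 kPa and in high glucose and above 2.6 in every other library, and PFKP to PFKL is highest on 60 kPa.

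Of the 51 other genes of these pathways, 25 passed the filter. On 60 kPa, 2 were higher and 4 lower, against 15.1% and 6.15% of all genes. In high glucose 4 were higher and 3 lower, against 17.6% and 6.84% of all genes. Their medians were -0.02 and 0.05, where those of all genes were 0.06 and 0.08. After GC correction 0 were higher and 2 lower in each comparison, against 10.1% and 5.46% of all genes called. BSG, the chaperone of MCT1 and MCT4 at the membrane, was lower by 0.54 ± 0.12 on 60 kPa (adjusted p = 0.0156) and by 0.61 ± 0.12 in high glucose (adjusted p = 0.0109), and it was also called after GC correction, at -0.24 and -0.26. EMB, another MCT chaperone, was higher by 0.88 ± 0.22 and 0.93 ± 0.22, and PRPS2, which uses ribose phosphate for nucleotide synthesis, by 0.61 ± 0.12 and 0.42 ± 0.12, and both lost their calls with the GC correction. G6PC3 was lower in both comparisons, at -0.61 ± 0.16 and -0.57 ± 0.16, PCK2 was lower on 60 kPa, at -0.50 ± 0.13, and SLC16A7 and PGM2 were higher in high glucose, at 0.60 ± 0.17 and 0.48 ± 0.12; none was called after GC correction there.

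Of 6 regulators of glycolytic genes, 5 were tested. On 6 kPa 1 of them was called lower, against 0.296% of all genes. After GC correction 1 was higher and 1 lower there, against 0.854% and 1.19%. HIF1A, the oxygen-regulated subunit of the hypoxia-inducible factor, was at 31.7 and 28 FPKM on 400 Pa, 37.2 and 37.9 on 1 kPa, 37.2 and 50 on 6 kPa, 61.7 and 60.1 on 60 kPa and 60.5 and 61.5 in high glucose. Its log2 difference was 1.01 ± 0.13 in both comparisons, and 0.50 and 0.46 after GC correction, all called. TXNIP, which restrains glucose uptake and is induced by glucose through MondoA in other cells, was at 54.9 and 54.5 FPKM on 400 Pa, 45.7 and 42.8 on 1 kPa, 21.7 and 26.8 on 6 kPa, 21.9 and 20 on 60 kPa and 121 and 124 in high glucose. TXNIP was lower on 60 kPa, by 1.35 ± 0.11 (adjusted p = 7.98e-04), and higher in high glucose, by 1.15 ± 0.11 (adjusted p = 0.00651), so that it moved in opposite directions while SLC2A1 was lower in both.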

How the data were processed

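Poly(A) RNA of MCF10A cells was sequenced in 10 libraries, 2 in each of 5 groups. The authors deposited FPKM values per gene, made with HOMER on hg19 over exons of 1 transcript per gene, per the file headers; no strand option is stated there. STAR, HOMER and DESeq2 are named without versions in the submitters' processing notes. The authors also deposited variance-stabilised log2 values, log2 fold changes and adjusted p-values for 2 comparisons; the log2 values were used as an alternative only. For 1 of the 1 kPa libraries the directory named in the header gives no stiffness, and its column name set its group.

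Differences were tested with limma 3.58.1 in R 4.3.3 on log2(FPKM + 1), with a trended prior, over the 12820 genes whose mean reached 0.5 FPKM, and adjusted over all of them. The deposited FPKM values gave whole reads for 99.98 to 100.00% of values (within 0.12 reads), and limma-voom was run on these reads as an alternative chosen after seeing the data. GC content was known for 96.1% of genes, and the correction removed a lowess curve (span 0.3) per library. All 30 members were named by symbol; the members and lists were chosen with earlier results of these data known. On simulated data for the 60 kPa comparison, with 12803 genes, 51 of 99 genes changed 2-fold and 92 of 98 changed 4-fold were called, with 3 of 12606 unchanged genes. The simulated reads had a fixed dispersion and no dependence on GC content that differed between libraries. These counts therefore do not measure false calls in the deposited data. Python 3.11.15 was used for the remaining steps. 1 gene of the further pathway list is counted there but not reported here by name.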

Additional observations from a re-analysis of the deposited data

How the results depend on the processing

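No member called between 60 kPa and 400 Pa, in high glucose or for the slope changed sign under any alternative run. The count of members called on 60 kPa, 8, became 6 with no filter, 13 with TMM scaling, 15 with median centring, 23 with the deposited variance-stabilised values, 13 with only the 4 libraries compared and 19 with limma-voom, and ranged from 0 to 18 when 1 library was left out. On 6 kPa the count of 0 became 1 with GC correction and 4 with limma-voom, against 2.04% and 2.93% of all genes. It also rose with median centring, with GC correction and without the shallower 6 kPa library, and without the deeper 6 kPa library. On 1 kPa the count of 0 became 6 with limma-voom, against 1.42% of all genes, and rose with GC correction and without the shallower 6 kPa library. In high glucose the count of 16 became 10 with no filter, and ranged from 0 to 21 when 1 library was left out. In the direct comparison the count of 0 became 4 with GC correction and 2 with limma-voom, against 6.89% and 5.64% of all genes. It also rose with TMM scaling, with median centring, and with GC correction and without the shallower 6 kPa library. The slope count of 8 became 4 with no filter, 5 with GC correction, 17 with limma-voom and 4 with GC correction and without the shallower 6 kPa library, and ranged from 1 to 12 when 1 library was left out.

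PGK1 on 60 kPa changed sign and was called after GC correction, at -0.30 (adjusted p = 0.00624), and without the shallower 6 kPa library as well, at -0.30 (adjusted p = 0.00311). LDHA in high glucose did so with both changes, at -0.23 (adjusted p = 0.0197); the causes were not tested. Where an arm was left with 1 library, that library was assumed to vary like the other groups. No paired analysis was possible because the column headings carry a group and a letter but no replicate number. The planned edgeR test was not run, since the deposited values are FPKM. SLC2A3 and ENO2 rest on as few as 2 reads in a library, which limits what can be said of them.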
